A study of Mus musculus with 12 samples.

Results

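The 7 genes described here encode the glycine cleavage system and the enzymes around it: Gldc, Gcsh, Amt, Dld, Shmt1, Shmt2 and Mthfd2. They were chosen by their known roles, but with earlier results of these data known, so their p-values are not independent support for the choice. Only probe sets that the platform annotation pairs with 1 of these genes alone were used, and each gene takes the value of its brightest one, by the mean of all 12 arrays. By this rule 6 of the 7 genes were measured, through 14 probe sets of 45037, and stand beside 18193 genes measured in all. No probe set was paired with Amt alone, so Amt is named only. The mean over the 12 arrays that picked each probe set is a description and was not tested.

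Total RNA of genital ridges and testes from male mouse embryos was hybridised to 12 Affymetrix whole-genome arrays, which read each gene through probe sets of short oligonucleotides. The 6 groups are 2 strains at 3 embryonic ages (E13.5, E15.5, E17.5), with 2 arrays each. The control strain is 129/Sv (129). The other strain, 129.MOLF-Chr 19 (M19), is a chromosome substitution strain: its chromosome 19 comes from MOLF mice and the remainder of its genome from 129, so it differs from the control over that whole chromosome and not at 1 gene. No treatment is given for any group, and all embryos were male. The labels state that RNA for 2 arrays came from a pool of 40 testis pairs. Arrays of a group may thus share a pool, in which case the p-values reflect only technical spread. Fewer cells of a type and less RNA per cell cannot be told apart in such whole-organ samples.

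The glycine cleavage system is a complex of mitochondria that takes glycine apart. Gldc, the P protein, removes the carboxyl group of glycine; Gcsh, the H protein, carries the remaining aminomethyl group on its lipoyl arm; Amt, the T protein, passes the carbon to tetrahydrofolate; and Dld, the L protein, reoxidises the lipoyl arm. Shmt1 in the cytosol and Shmt2 in mitochondria interconvert serine and glycine and load the same folate carrier, and Mthfd2 oxidises the loaded folate in mitochondria. The carbon units feed the synthesis of purines, thymidylate and methionine. Gldc is known to be high in pluripotent stem cells, and Dld also serves the pyruvate, oxoglutarate and branched-chain oxoacid dehydrogenases.

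In build GRCm38.p6 of the RefSeq annotation, Gldc lies at chr19:30098441-30175441, on the chromosome that differs between the strains. Gcsh lies at chr8:116981967-116993498, Amt at chr9:108296905-108302302, Dld at chr12:31331562-31351471, Shmt1 at chr11:60788897-60811265, Shmt2 at chr10:127517123-127522444 and Mthfd2 at chr6:83305704-83326011. None of these 6 lies on the substituted chromosome.

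The promoters of the 3 genes that passed a test in at least 1 comparison are shown as the 250 bases before the RefSeq start site, 5′ to 3′ on the gene's own strand, the minus strand in all 3. Capitals mark matches, on either strand, to a CCAAT box (CCAAT) or a GC box (GGGCGG). The sequence is that of the C57BL/6J reference, which is neither 129 nor MOLF. The windows are chr19:30175442-30175691 for Gldc, chr11:60811266-60811515 for Shmt1 and chr8:116993499-116993748 for Gcsh.
Gldc: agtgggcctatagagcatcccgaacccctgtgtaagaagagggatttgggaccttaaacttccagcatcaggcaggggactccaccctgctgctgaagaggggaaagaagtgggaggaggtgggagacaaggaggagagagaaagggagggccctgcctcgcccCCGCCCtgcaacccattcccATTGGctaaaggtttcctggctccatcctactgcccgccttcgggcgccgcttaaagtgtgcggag
Shmt1: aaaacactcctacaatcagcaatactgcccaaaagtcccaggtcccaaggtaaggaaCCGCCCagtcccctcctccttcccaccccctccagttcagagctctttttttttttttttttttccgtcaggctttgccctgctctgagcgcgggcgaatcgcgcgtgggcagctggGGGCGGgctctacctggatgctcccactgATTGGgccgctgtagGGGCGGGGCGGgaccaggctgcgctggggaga
Gcsh: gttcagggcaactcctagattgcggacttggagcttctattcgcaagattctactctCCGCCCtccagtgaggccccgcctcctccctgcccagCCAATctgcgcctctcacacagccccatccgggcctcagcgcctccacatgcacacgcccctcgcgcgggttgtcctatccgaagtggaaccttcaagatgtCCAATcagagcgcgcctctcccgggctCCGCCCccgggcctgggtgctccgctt

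The Gldc window holds 1 CCAAT box, whose first base lies 66 bases before the start, and 1 GC box at 86 bases. The Shmt1 window holds 1 CCAAT box at 47 bases and 4 GC boxes at 193, 76, 32 and 27 bases, the last pair overlapping. The Gcsh window holds 2 CCAAT boxes, at 156 and 54 bases, and 2 GC boxes, at 193 and 27 bases. All 3 are rich in G and C, at 59.6% for Gldc, 60.0% for Shmt1 and 64.4% for Gcsh, against a median of 52.4% over 32851 promoters of the same length. A CCAAT box occurs in 33.8% of those promoters and a GC box in 32.7%, so both are common. The element TGATGNAA, known for ATF4, occurs in 3.45% of promoters and the E-box CACGTG in 6.02%. Neither has a match in these windows of the 7 genes. The Mthfd2 window, chr6:83317605-83317854 on the minus strand, lies inside the gene span given above, so bases before the outer end of that span were not searched. The motifs were picked after the values were seen, and a match is a description of the letters and not a binding site.

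Differences below are on the log2 scale, M19 minus 129 or later minus earlier stage, with the standard error (SE) of a limma fit on all 12 arrays. A gene is called where its two-sided p, adjusted by Benjamini-Hochberg over all 45037 probe sets, is under 0.05. Folds assume that the deposited scale is base 2. The values are not comparable between genes, since each probe set has its own brightness. Array medians lay between 8.1 and 8.27. One array stood apart in a control: the mean 18S ribosomal RNA signal of 129 E13.5 replicate 1 was 9.69, against 6.88 to 8.38 on the other 11 arrays. Genes of skin, muscle and cartilage were high on both 129 E15.5 arrays, where the summed signal of 10 such markers was 13.57 to 13.64, against 10.67 to 11.15 on all others. Markers of germ cells, Sertoli cells and fetal Leydig cells were measured on every array, and no marker of any list was at 0.

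Gldc, the glycine-decarboxylating subunit, was higher in M19 and lower at the last stage. At E13.5 its log2 signal was 9.41 and 9.55 on the 129 arrays and 9.95 and 9.98 on the M19 arrays. At E15.5 it was 9.01 and 9.21 in 129 and 9.97 and 9.88 in M19. At E17.5 it was 7.80 and 7.83 in 129 and 8.34 and 8.38 in M19. Both M19 arrays thus lay above both 129 arrays at each stage, and the lowest E15.5 value of either strain lay above all 4 values of E17.5. Ordered by mean, the groups ran from M19 E13.5 (9.97, SD 0.02, n = 2) through M19 E15.5 (9.92, SD 0.06), 129 E13.5 (9.48, SD 0.10), 129 E15.5 (9.11, SD 0.15) and M19 E17.5 (8.36, SD 0.03) to 129 E17.5 (7.82, SD 0.02). Only the first pair of neighbours in that order overlapped.

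**Figure D1:**
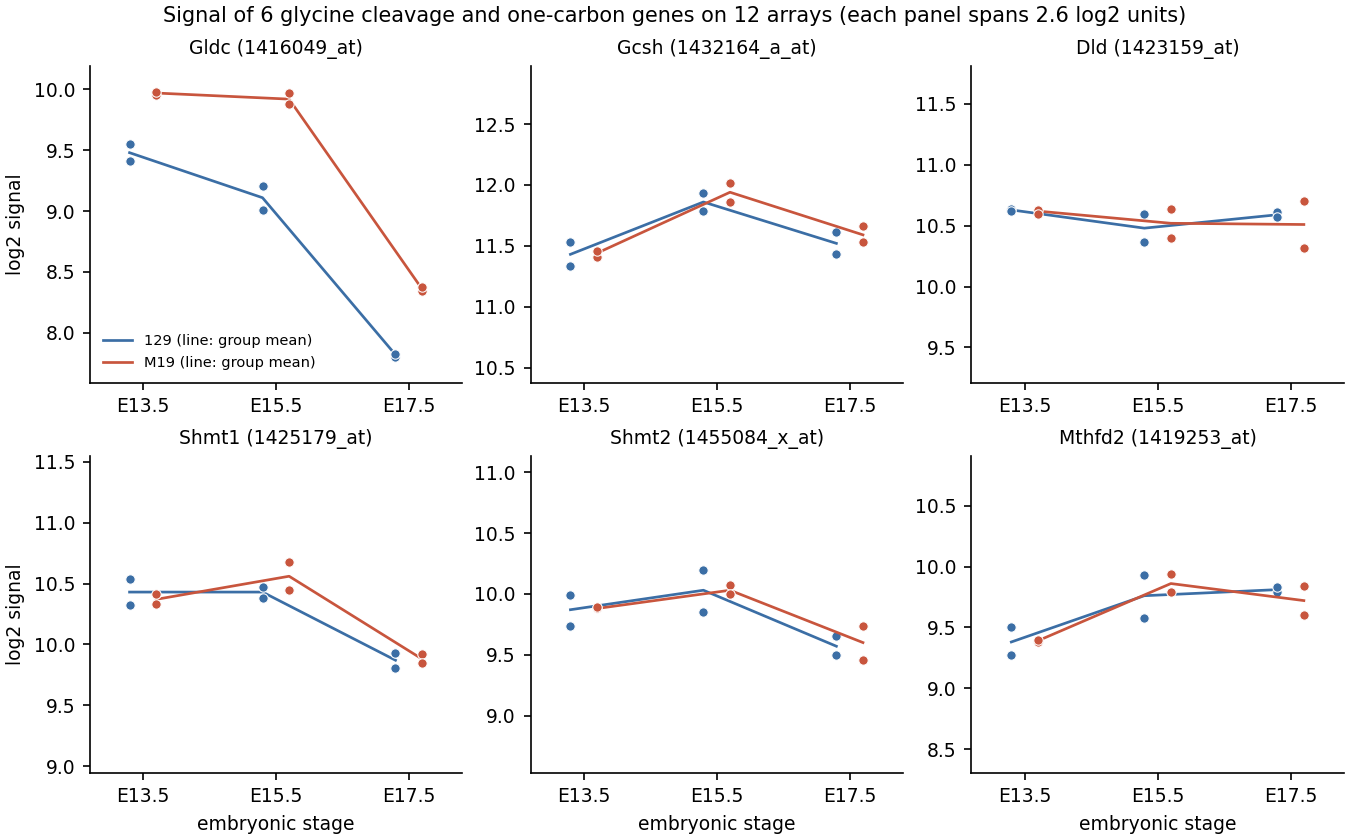
Log2 signal (vertical axis) of the 6 measured genes by embryonic stage (horizontal axis); each point is 1 array, blue for 129 and red for M19, and lines join group means. Each panel spans the same 2.6 log2 units, so slopes can be compared but levels cannot. Gldc shows M19 above 129 at all 3 stages and group means from 9.97 down to 7.82; Gcsh peaks at E15.5, and Dld stays between 10.32 and 10.70.

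The strain difference of Gldc was 0.48 ± 0.11 (SE) at E13.5, 0.81 ± 0.11 at E15.5 and 0.55 ± 0.11 at E17.5. Only the E15.5 difference was called, at 1.76-fold (limma adjusted p = 0.0084); at E13.5 the adjusted p was 0.69 and at E17.5 it was 0.35. Few genes were called between the strains at any stage: 0.0330% of the 18193 genes at E13.5, 0.682% at E15.5 and 0.0934% at E17.5. The E15.5 calls included all 10 skin, muscle and cartilage markers. Over the 3 stages together Gldc was 0.62 ± 0.07 higher in M19, or 1.53-fold (adjusted p = 0.0014), where 0.462% of genes were called. The difference ranked 17th from the highest of 18193 genes over the stages, and 27th, 40th and 51st at the single stages. A strain difference that changes with stage was not shown for Gldc by limma's F test (F = 2.33, adjusted p = 1), and 0.203% of genes passed that test.

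The other 5 measured genes showed no called strain difference at any stage, over the stages or in the interaction, so 1 of 6 was called at E15.5 and 1 of 6 over the stages, Gldc each time. By the brightest probe sets, 1 of 6 had an unadjusted limma p under 0.05 at E13.5 and at E17.5, Gldc again. In the interaction it was 0 of 6. Over the stages the differences were 0.05 for Gcsh, 0.03 for Shmt1, 0.02 for Shmt2, 0.01 for Mthfd2 and -0.02 for Dld. The largest of their single-stage differences was 0.14, of Shmt1 at E15.5. Standard errors at a stage were 0.13 to 0.15, and a missed threshold does not show equal levels.

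Limits of the Gldc strain difference lie in the E15.5 arrays. Its call at E15.5 was lost without 129 E15.5 replicate 1 (0.71, adjusted p = 0.063), M19 E15.5 replicate 1 (0.77, 0.14) or M19 E15.5 replicate 2 (0.86, 0.076), and when the E15.5 groups were fitted alone (0.81, 0.077). Without 129 E13.5 replicate 1, the array that stood apart in 18S signal, the E13.5 difference was 0.41. The difference over the stages kept its call without any single array (0.58 to 0.65), but not without the 4 E15.5 arrays together (0.52, adjusted p = 0.12).

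Several marker levels moved with the E15.5 difference. The germ cell list had a summed log2 signal of 14.39 to 14.55 in 129 E15.5 and 14.78 to 14.87 in M19 E15.5, and 3 of its 9 measured genes (Sox2, Nanog and Dppa5a) were called higher in M19, there and over the 3 stages. At E13.5 the same sums were 14.23 to 14.35 in 129 and 14.22 to 14.24 in M19, and at E17.5 14.02 to 14.10 and 13.93 to 14.15, so the sums overlapped between strains at both stages. Uncalled at E15.5, Tdrd1 and Mael lay lower on both M19 arrays, and Dazl and Pou5f1 higher. Single germ cell genes did not all overlap at the outer stages. At E17.5 Sox2 was 5.78 and 5.53 in 129 and 6.56 and 7.07 in M19. Nanog, Pou5f1, Dppa5a and Dnd1 also lay higher on both M19 arrays at E17.5, and Dazl lower. At E13.5 Dppa5a lay higher on both M19 arrays, and Dazl, Dnd1, Tdrd1 and Mael lower. None of these was called at E13.5 or E17.5. All 10 skin, muscle and cartilage markers were lower in M19 at E15.5, with the sums given above. The part of either in the Gldc difference was not tested.

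Gldc has a single probe set here, and the array's probes read transcript from the MOLF chromosome in M19. A strain difference in transcript level and one in how well the MOLF transcript matches the probes cannot be told apart from this probe set alone. Among the 609 genes of chromosome 19, 1.81% were called higher in M19 over the stages and 4.43% lower, and Gldc ranked 5th from the highest. Of the 5 measured genes on each side of Gldc, 1 of 10 was called over the stages by its brightest probe set. This was Mbl2, a mannose-binding lectin, the next measured gene after Gldc at chr19:30232906-30239687, and it differed in the opposite direction (-0.85 ± 0.06, adjusted p = 8.4e-05). Mbl2 had dim group means, from 6.31 to 7.76. Uhrf2, the measured gene on the other side at chr19:30030430-30093726, differed by -0.09 ± 0.17 through its brighter probe set and 0.20 ± 0.13 through its other one, neither called. Dkk1, a secreted Wnt inhibitor further along, lay in the direction of Gldc at E17.5: 0.98 ± 0.18 through its brighter probe set (adjusted p = 0.18) and 1.13 ± 0.15 through its other one (0.017, called). Its brighter set differed by -0.50 at E13.5 and -0.47 at E15.5, not called.

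**Figure D2:**
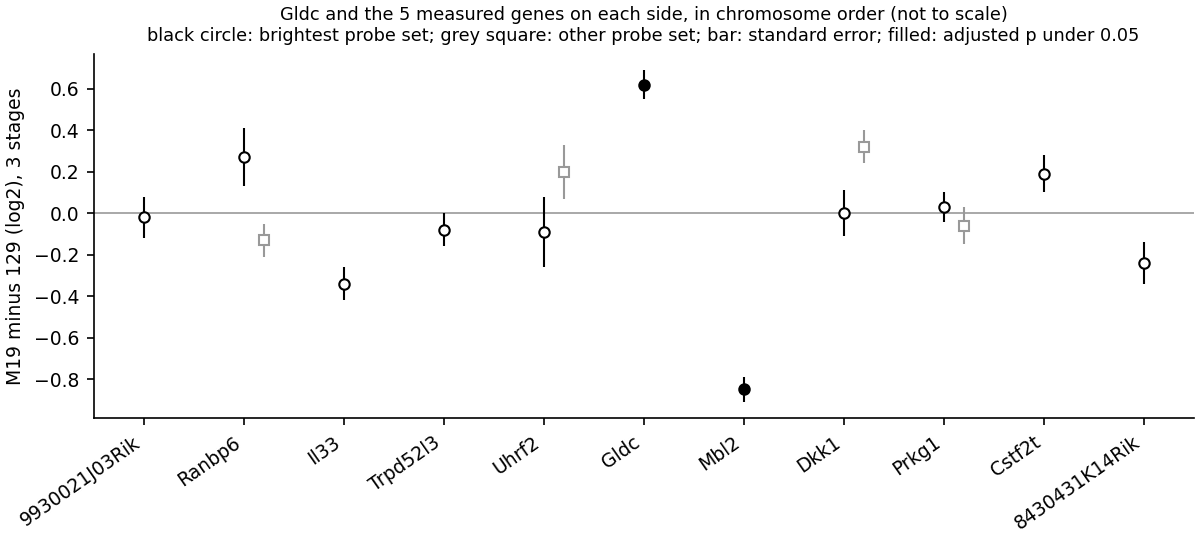
M19 minus 129 over the 3 stages (vertical axis, log2) for Gldc and the 5 measured genes on each side, in chromosome order and not to distance; circles are the brightest probe set of a gene, squares another one, bars the standard error, filled symbols an adjusted p under 0.05. Gldc at 0.62 is the only called increase in this stretch and Mbl2 at -0.85 the only called decrease over the stages.

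With age, Gldc fell in both strains, and the called step was the late one. From E13.5 to E15.5 it differed by -0.37 ± 0.11 in 129 (adjusted p = 0.11) and -0.04 ± 0.11 in M19 (0.95), so neither step was called. In the late step, E15.5 to E17.5, it fell by 1.29 ± 0.11 in 129, or 2.45-fold (adjusted p = 0.00026), and by 1.56 ± 0.11 in M19, or 2.95-fold (7.9e-05). Over the whole span it fell by 1.67 ± 0.11 in 129 (3.18-fold, adjusted p = 7.6e-06) and 1.60 ± 0.11 in M19 (3.04-fold, 8.1e-06). The E15.5 to E17.5 fall ranked 57th from the lowest of 18193 genes in 129 and 24th in M19, and it stayed called without any single array. Successive steps share the E15.5 arrays and the spans share the outer ones, so these results are not separate evidence.

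The Gldc fall ran beside a lower germ cell signal. In the same step 4 of 9 measured germ cell genes were called lower in 129 (Sox2, Dppa5a, Pou5f1 and Dnd1) and 5 in M19 (with Dazl added), and none was called higher. Among the uncalled genes, Dazl had group means of 11.91 and 12.02 in 129. Mael had 12.95 and 12.82 in 129 and 12.82 and 12.80 in M19. The summed germ cell signal, given above, was lower on all 4 E17.5 arrays than on all 4 E15.5 arrays. Replication genes, which mark dividing cells, had no called member in this step, with sums of 15.19 to 15.29 at E15.5 and 15.16 to 15.27 at E17.5. In 129 the skin, muscle and cartilage list fell too. Its sums were 13.57 to 13.64 at E15.5 and 11.04 to 11.12 at E17.5, and 8 of its 10 markers were called lower. In M19 3 of the 10 were called higher in this step. The part of germ cell number or of that tissue in the Gldc fall was not tested.

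Gcsh, the lipoyl-carrying H protein, was highest at E15.5 in both strains. It was read through a single probe set, 1432164_a_at. Its log2 signal was 11.33 and 11.53 in 129 and 11.41 and 11.46 in M19 at E13.5. It was 11.79 and 11.93 in 129 and 12.02 and 11.86 in M19 at E15.5, and 11.61 and 11.43 in 129 and 11.53 and 11.66 in M19 at E17.5. Every E15.5 value lay above every value of the other stages, and the strains overlapped at each stage. The rise from E13.5 to E15.5 was called in M19 (0.50 ± 0.13, adjusted p = 0.044); in 129 the difference was 0.43 ± 0.13 (0.092). In the late step the difference was -0.35 ± 0.13 in each strain, not called (0.26 in 129 and 0.20 in M19). The M19 call is near the threshold: it was lost on leaving out 10 of the 12 arrays, one at a time (0.42 to 0.58, highest adjusted p 0.31), with median centring (0.47, 0.092) and with the replicate number as a block (0.055).

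Gcsh was the 1 gene of 6 called in M19 from E13.5 to E15.5, where 5.74% of all genes were called higher and 1.66% lower. In 129 none of the 6 was called in that step, where 4.46% were higher and 1.84% lower; 3 of 6 (Gcsh, Gldc and Mthfd2) had an unadjusted limma p under 0.05. At this early step fetal Leydig cell markers rose in both strains, 5 of 5 each time, and the summed Sertoli cell signal went from 14.28 to 14.45 at E13.5 to 14.87 to 14.98 at E15.5, although the Sertoli gene Fgf9 fell in both strains. Germ cell genes also changed: Ddx4, Mael, Tdrd1 and Dnd1 rose in both strains and Pou5f1 in M19, while Nanog and Dppa5a fell in both and Sox2 in 129. The summed germ cell signal was 14.22 to 14.35 at E13.5, 14.39 to 14.87 at E15.5 and 13.93 to 14.15 at E17.5. The Sertoli and Leydig sums were highest at E17.5. The skin, muscle and cartilage sum was highest at E15.5 in 129 and lowest there in M19. In 129 all 10 skin, muscle and cartilage markers were also called higher in this early step. Of the 10, 2 were called lower in M19. The part of these cell types in the Gcsh difference was not tested.

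Dld, the dihydrolipoyl dehydrogenase shared with other complexes, had the flattest profile. Its 12 values lay between 10.32 and 10.70, its group means spanned 0.15, and no comparison was called. Its SE was 0.15 in each stage comparison. A second probe set, 1433263_at, was dim at a mean of 6.09 and had no called difference either.

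The serine hydroxymethyltransferases gave lower values at E17.5 by their brightest probe sets. Shmt1, the cytosolic enzyme, had a log2 signal of 10.54 and 10.32 in 129 and 10.41 and 10.33 in M19 at E13.5. It had 10.38 and 10.47 in 129 and 10.68 and 10.45 in M19 at E15.5, and 9.81 and 9.93 in 129 and 9.92 and 9.85 in M19 at E17.5. All 4 values of E17.5 lay below all 8 earlier ones, and the strains overlapped at each stage. Between E15.5 and E17.5 Shmt1 fell by 0.68 ± 0.13 in M19 (adjusted p = 0.020), and in 129 the difference was -0.56 ± 0.13 (0.057, not called). Over the whole span it fell by 0.56 ± 0.13 in 129 (0.019) and by 0.49 ± 0.13 in M19 (0.030). The 129 span call was lost without 129 E13.5 replicate 1 (-0.46, adjusted p = 0.07), 129 E17.5 replicate 1 (-0.50, 0.13) or replicate 2 (-0.62, 0.064), and the M19 calls without any 1 of the 4 M19 arrays compared.

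The fall of Shmt1 depends on the probe set. The brightest, 1425179_at, had a mean of 10.256, and the next, 1425178_s_at, lay just outside the choice at 10.250. That second probe set differed by 0.28 from E15.5 to E17.5 in M19 and by 0.10 in 129, with no call, and its correlation with the first was -0.56 over the 12 arrays. Its values at E17.5, 10.33 and 10.25 in 129 and 10.49 and 10.36 in M19, overlapped the 10.12 to 10.44 of the earlier stages. The third, 1422198_a_at, went the way of the first (r = 0.77), with -0.63 in M19 and -0.14 in 129, and was not called; the fourth, 1425177_at, differed by at most 0.09 in the 6 stage comparisons. With the 4 probe sets averaged, no Shmt1 comparison was called (-0.26 in M19 from E15.5 to E17.5, -0.19 and -0.11 over the spans). Suffixes _s_at and _a_at mark, by the maker's naming, sets that can read several transcripts, and which Shmt1 transcripts each set reads was not analysed here.

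Shmt2, the mitochondrial enzyme, had a log2 signal of 9.74 and 9.99 in 129 and 9.88 and 9.89 in M19 at E13.5. It had 9.85 and 10.20 in 129 and 10.07 and 10.00 in M19 at E15.5, and 9.50 and 9.65 in 129 and 9.46 and 9.74 in M19 at E17.5. Every E17.5 value was below every E15.5 value, yet no comparison was called. The difference from E15.5 to E17.5 was -0.45 ± 0.15 in 129 (adjusted p = 0.20) and -0.44 ± 0.15 in M19 (0.18). Its next probe sets, 1426423_at and 1434204_x_at, gave -0.42 and -0.33 in 129 and -0.40 and -0.44 in M19, and the dimmest, 1455985_x_at at a mean of 5.95, gave -0.42 and 0.00. The brightest was 1455084_x_at. Whether the _x_at sets also read other sequences was not analysed here.

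**Figure D3:**
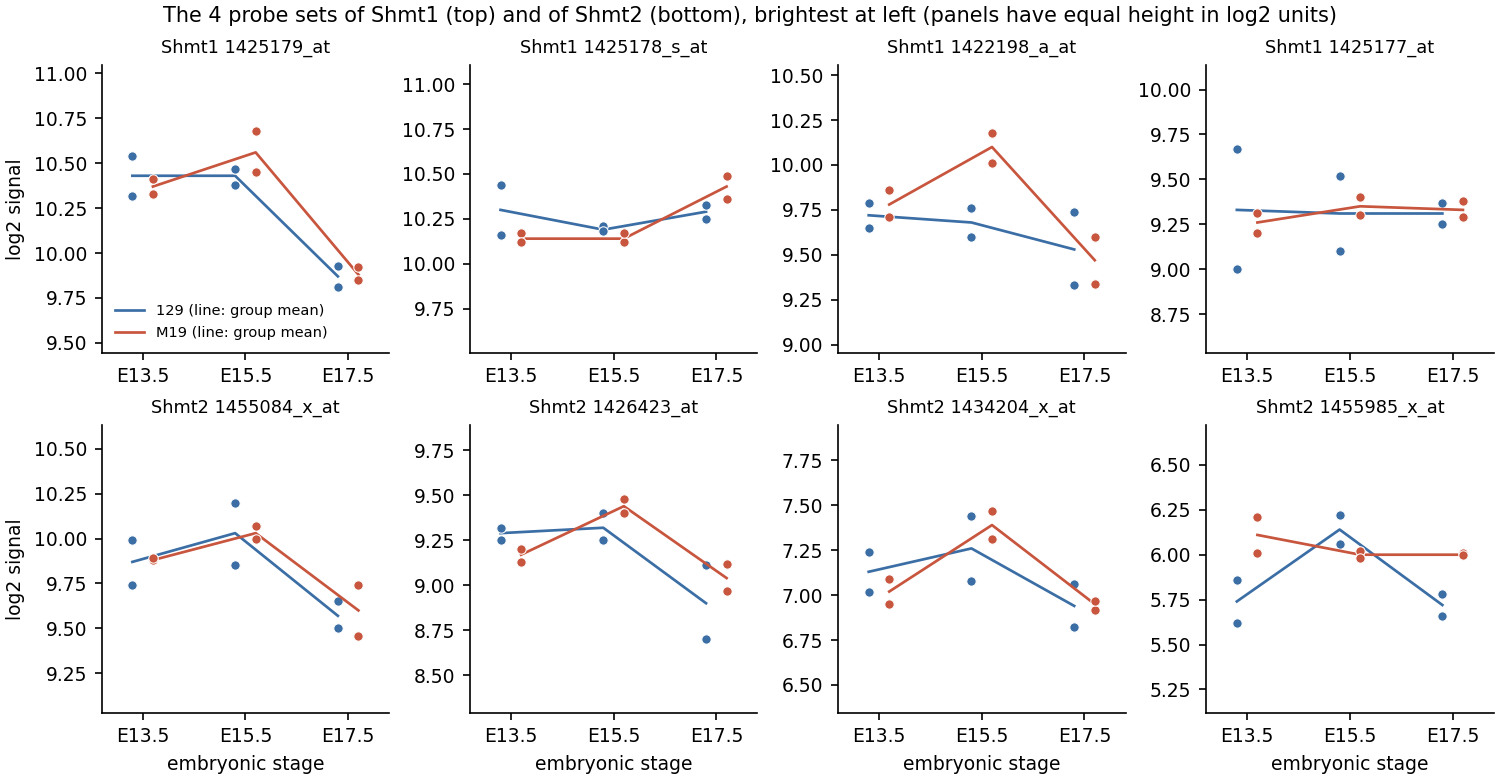
Log2 signal (vertical axis) by stage (horizontal axis) of the 4 probe sets of Shmt1 (top row) and the 4 of Shmt2 (bottom row), from brightest at left; each point is 1 array, blue 129 and red M19, and lines join group means. Panels have equal height in log2 units. The 2 brightest Shmt1 sets, at means of 10.256 and 10.250, run opposite ways after E15.5, while 3 of the 4 Shmt2 sets run lower at E17.5 than at E15.5 in both strains.

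Mthfd2, the mitochondrial dehydrogenase of the folate cycle, had its lowest values at E13.5: 9.27 and 9.50 in 129 and 9.38 and 9.40 in M19. It had 9.58 and 9.93 in 129 and 9.94 and 9.79 in M19 at E15.5, and 9.79 and 9.83 in 129 and 9.60 and 9.84 in M19 at E17.5. All 8 later values lay above the 4 of E13.5, but no comparison was called. The difference from E13.5 to E15.5 was 0.37 ± 0.15 in 129 (adjusted p = 0.23) and 0.47 ± 0.15 in M19 (0.11), and over the span 0.42 (0.11) and 0.33 (0.17). The second probe set, 1419254_at, gave 0.33 and 0.54 for the early step and 0.35 and 0.34 for the span, in the same direction.

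Counted over the 6 measured genes, the called falls were those of Gldc and Shmt1 and the called rise that of Gcsh. Between E15.5 and E17.5, 1 of 6 fell in 129 (Gldc), where 1.24% of all genes fell and 1.18% rose, and 2 of 6 fell in M19 (Gldc and Shmt1), where 1.79% fell and 1.45% rose. Over the whole span 2 of 6 fell in each strain, Gldc and Shmt1, where 4.00% of genes fell and 6.90% rose in 129, and 5.26% fell and 10.2% rose in M19. None of the 6 rose over the span, where Mthfd2 had an unadjusted limma p under 0.05 in both strains. The median difference over all 18193 genes was between -0.06 and 0.10 in every comparison.

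**Figure D4:**
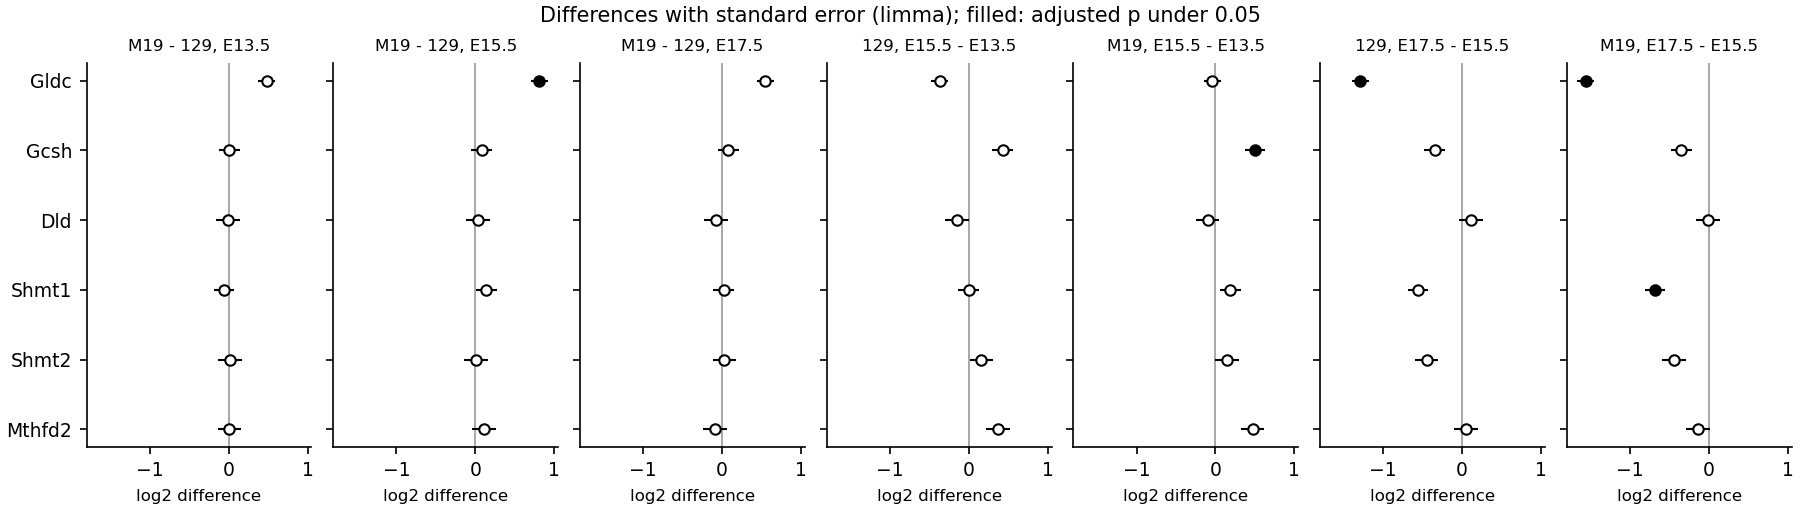
Differences (horizontal axis, log2) of the 6 measured genes (rows) in the 3 strain comparisons and the 4 stage steps (panels), with the standard error of the limma fit; filled circles have an adjusted p under 0.05. Gldc stands to the right of 0 in all 3 strain panels, with 0.81 at E15.5 filled, and far to the left in both late steps (-1.29 and -1.56), while Dld stays within 0.15 of 0.

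Across the 12 arrays, which share stage and strain, the genes fell into profiles that are given here as a description. Each gene is read by its brightest probe set. Gldc ran with Shmt1 (Pearson's r = 0.88) and Shmt2 (0.75), and Shmt1 with Shmt2 (0.80). For Shmt1 this depends on the set chosen: the next one, 1425178_s_at, was nearly as bright and had an r of -0.56 with the first. Gcsh ran with Mthfd2 (0.74). Gldc and Mthfd2 had an r of -0.36, and Dld lay between -0.19 and 0.21 with all others. Gldc and Gcsh, which act in 1 complex, had an r of 0.20.

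The genes most like each member were taken from 12076 genes of at least median brightness, by Pearson's r over the 12 arrays. For Gldc these were Phf5a (0.98), a splicing factor subunit, Sox2 (0.97), a transcription factor of pluripotent cells and early germ cells, and Bclaf1 (0.97). Sox2 had group means of 10.53 in 129 and 10.62 in M19 at E13.5, 8.62 and 10.27 at E15.5, and 5.66 and 6.82 at E17.5. For Gcsh they were Zfp119a (0.99), Zcchc7 (0.99) and Zfp850 (0.98), and for Mthfd2 Chchd3 (0.99), Cenpj (0.98) and Pdpr (0.98). For Shmt1 they were Cpa1 (0.97), Znhit6 (0.96) and Ddx27 (0.96), and for Shmt2 Spata2, Xpo5 and Mrtfb (0.97 each). Dld had looser matches, Fmnl2 (0.94), Wdr26 (0.93) and Sec22b (0.93).

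The surrounding pathway was followed through 51 listed genes of serine synthesis, folate enzymes and transport, methionine and homocysteine, glycine transport, lipoyl synthesis and the other complexes that use Dld, of which 48 were measured. None of the 48 was called in any strain comparison or in the interaction, and their median strain difference was -0.09 at E13.5, 0.04 at E15.5, 0.00 at E17.5 and -0.02 over the stages. At an unadjusted limma p under 0.05 the counts were 2, 4, 1 and 1 of 48, and 2 in the interaction. Gldc was the 1 gene with a called strain difference among these 48 and the 6 members together. Of all genes, 0.0330% were called at E13.5, 0.682% at E15.5, 0.0934% at E17.5, 0.462% over the stages and 0.203% in the interaction. The lack of a call among 48 genes is near that background. By stage, 4 of 48 rose and 3 fell in 129 from E13.5 to E15.5, and 6 rose and 2 fell in M19. In the late step 1 rose and 2 fell in 129, and 1 rose and 1 fell in M19. Over the span 5 rose and 4 fell in 129, and 5 rose and 6 fell in M19. The median difference over the 48 lay between -0.04 and 0.10 in these 6 stage comparisons. The shares of all genes called in them are those given above. In the M19 span 10.2% of all genes rose and 5.26% fell, so 5 rises among 48 are near that background and 6 falls are a larger share. In the early step in 129 4.46% of all genes rose and 1.84% fell, and 4 rises and 3 falls among 48 are larger shares. The counts were not tested against these shares.

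Bhmt2 had the largest called difference among the 48. It is a methyltransferase that makes methionine from homocysteine, and it rose over the span by 2.42 ± 0.18 in 129 and 2.20 ± 0.18 in M19, though it stayed dim, with group means from 5.12 to 7.76. Mtr, the folate-dependent methionine synthase, rose from E13.5 to E15.5 by 1.36 ± 0.11 in 129 and 1.28 ± 0.11 in M19, and in 129 it then fell by 0.72 ± 0.11. Ahcy, which splits S-adenosylhomocysteine, fell over the span by 0.77 ± 0.10 in 129 and 0.72 ± 0.10 in M19. Mat2b, a regulatory subunit of methionine adenosyltransferase, fell by 0.58 ± 0.13 in M19 in the late step.

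Folate uptake and the cytosolic folate enzymes also had called members. Folr1, a folate receptor, rose over the span by 1.21 ± 0.17 in 129 and 1.20 ± 0.17 in M19, and Ggh, which trims the glutamate tail of folates, by 0.95 ± 0.15 and 0.98 ± 0.15. Aldh1l1, which oxidises formyl-tetrahydrofolate in the cytosol, rose by 0.62 ± 0.13 in 129 and 1.08 ± 0.13 in M19. Atic, of purine synthesis, fell by 0.63 ± 0.13 and 0.62 ± 0.13. Mthfd1, the cytosolic counterpart of the mitochondrial folate dehydrogenases, fell by 0.45 ± 0.10 in 129 in the early step and by 0.36 ± 0.10 in M19 over the span. No listed mitochondrial folate enzyme (0 of 6) and no glycine transporter (0 of 3) was called by limma in a stage comparison. Of all genes, 1.18% to 10.2% rose and 1.24% to 5.26% fell in these comparisons, so such counts are near that background. Of the 6 and the 3 genes, 3 and 2 had an unadjusted limma p under 0.05 in at least 1 stage comparison.

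Serine synthesis and the lipoyl pathway gave single calls. Phgdh, the first enzyme of serine synthesis, had 12.14 and 12.08 on the 129 arrays at E15.5 and 11.36 and 11.54 at E17.5. This was a fall of 0.66 ± 0.12 (limma adjusted p = 0.024). In M19 its group means were 11.97 at E15.5 and 11.69 at E17.5, not called. Skin, muscle and cartilage markers were high on the same 129 E15.5 arrays, and their part in the Phgdh fall was not tested. Lipt2, which transfers octanoyl groups on to Gcsh, fell over the span by 0.82 ± 0.19 in M19 (0.021). Of the other partners of Dld, Bckdhb fell over the span by 0.64 ± 0.15 in 129 and 0.63 ± 0.15 in M19, and Pdha1, of the pyruvate dehydrogenase complex, by 0.51 ± 0.11 and 0.41 ± 0.11. Bckdha, the partner of Bckdhb in the branched-chain complex, rose in the early step by 0.49 ± 0.12 in 129 and 0.79 ± 0.12 in M19.

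**Figure D5:**
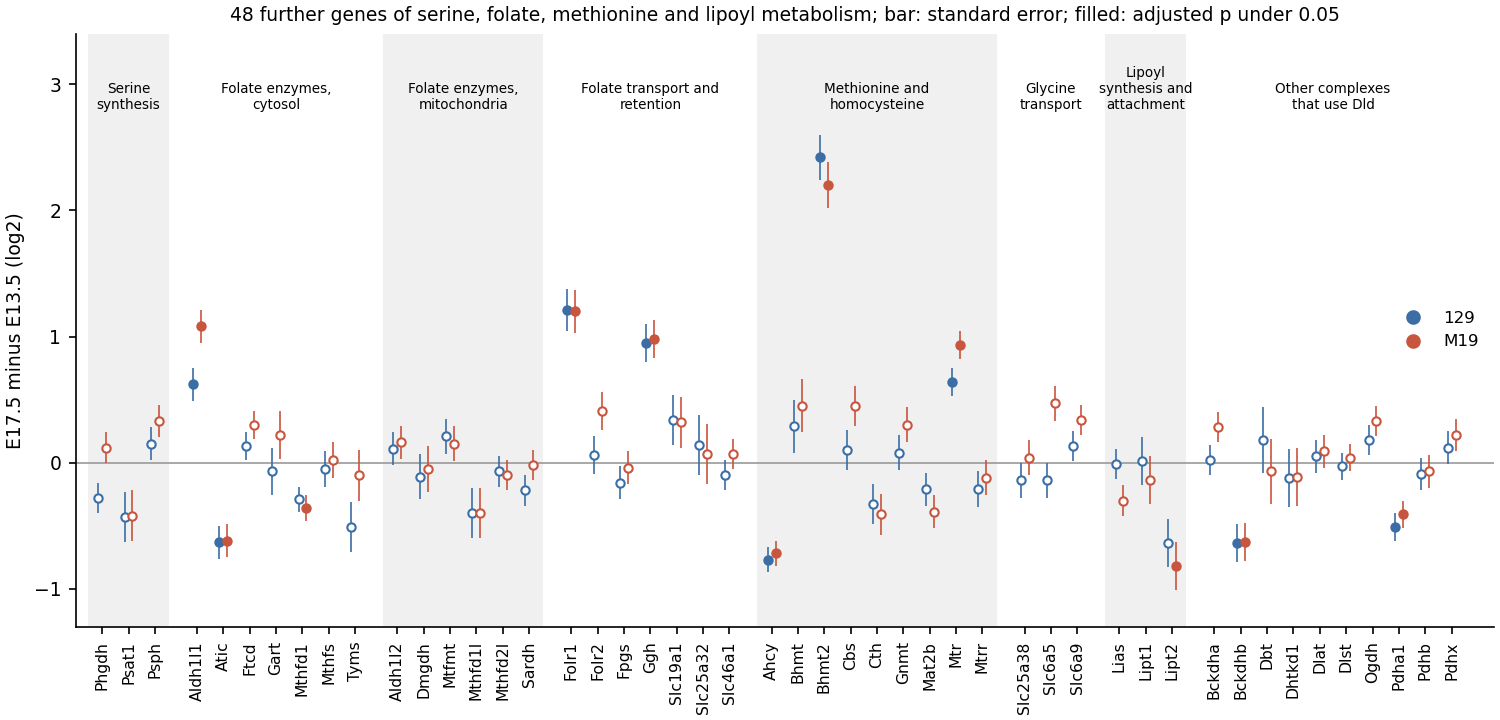
E17.5 minus E13.5 (vertical axis, log2) for the 48 measured pathway genes, grouped by role on shaded bands, blue for 129 and red for M19, with the standard error; filled circles have an adjusted p under 0.05. Bhmt2 rises most (2.42 and 2.20), Ahcy falls in both strains (-0.77 and -0.72), and no mitochondrial folate enzyme is filled. Of all genes, 6.90% rose and 4.00% fell in 129, and 10.2% rose and 5.26% fell in M19.

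The lists read other cell types as well. The sum of 5 red blood cell markers moved most, from 15.12 to 15.32 at E13.5 to 11.42 to 11.54 at E17.5, and the embryonic globins Hbb-y, Hba-x and Hbb-bh1 fell in both strains. Alas2, of the same list, was called higher over the span in both. Its group means went from 9.60 to 10.99 in 129 and from 9.34 to 11.05 in M19. Epb42 was not called. Liver markers had sums of 10.42 to 10.82 at E13.5 and 11.68 to 11.81 at E17.5, where Afp (group means 6.64 to 10.89 in 129) and Ahsg were the called members. Of the mesonephros and duct list, Cdh16 fell in both strains. Leydig markers rose as given above, and macrophage sums lay between 11.31 and 12.10 throughout, with no called member. Endothelial sums lay between 11.80 and 12.50. In both strains Kdr was called lower in the early step and Cdh5 higher in the late step. The part of these cell types in the stage differences of the pathway genes was not tested.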

How the data were processed

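The deposited table holds 1 log-scale value per probe set for each of 12 arrays. The authors' summary method, normalization and log base are not given in the sources used here; the deposited values, 0 to 15.03, are taken as log2 signal. Of 45101 probe sets, 64 controls were left out. The platform annotation pairs 34945 of 45037 with 1 gene, 932 with several and 9160 with none; RefSeq (GRCm38.p6) matched 34741. Groups come from the sample titles, and replicate numbers do not pair arrays.

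limma 3.58.1 in R 4.3.3 fitted 6 group means to all 12 arrays (6 residual and 4.82 prior degrees of freedom), with eBayes, without a block. In all 11 comparisons p-values were adjusted over all probe sets. The procedure was tested on simulated data. Arrays have no read depth; 2 per group limit the precision.

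All 7 members, called pathway genes, the 3 genes most like each member and the 5 measured genes on each side of Gldc are named. Promoters come from RefSeq. Members and lists were chosen with earlier results of these data known. Alternatives covered normalization, filters, variance models, a replicate block, other probe sets and left-out arrays. Python 3.11.15, pandas 2.3.3 and matplotlib 3.10.9 made tables and plots.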

Additional observations from a re-analysis of the deposited data

How the results depend on the processing

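No called difference of a member changed sign when the whole fit was repeated under another setting; the second Shmt1 probe set taken alone did differ in sign (0.28 against -0.68 in M19 from E15.5 to E17.5, and 0.28 against -0.49 over the span). The count of called members at E15.5 between strains went from 1 to 0 with the compared groups alone and ranged from 0 to 1 on leaving out each array in turn; over the stages it was 0 without the E15.5 arrays. From E13.5 to E15.5 in 129 it rose from 0 to 1 with quantile normalization, with probe sets above the median mean or with an intensity trend (Gcsh), and to 2 with all probe sets of a gene averaged (Gldc added). From E15.5 to E17.5 in 129 it rose from 1 to 2 with quantile normalization, median centring, either filter on dim probe sets or an intensity trend (Shmt1 added), and ranged from 1 to 2 with an array left out. From E13.5 to E15.5 in M19 it was 0 with median centring or the replicate block, 2 with the compared groups alone or the mean of all probe sets (Mthfd2 added), and 0 to 1 with an array left out. From E15.5 to E17.5 in M19 it was 1 with the mean of all probe sets and 1 to 2 with an array left out. Over the span it was 1 in 129 with the compared groups alone and 1 in M19 with the mean of all probe sets, and 1 to 2 in each strain with an array left out; in 129 the mean of all probe sets kept a count of 2, with Mthfd2 (0.39) in place of Shmt1, and quantile normalization gave 3, with Mthfd2 (0.47) added.

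Shmt1 lost its call over the span in 129 without 129 E13.5 replicate 1 (-0.46, adjusted p = 0.07), the array that stood apart in 18S signal, or either 129 E17.5 array. It lost its calls in M19 without any 1 of the 4 M19 arrays compared. The replicate block ended no other call of a member; the deviations of same-numbered arrays correlated between -0.373 and 0.539 over 15 pairs of groups, so the numbers were not taken as pairs. The compared groups alone gives no separate fit over the stages or for the interaction. Except where given, the causes were not tested.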
